A study of Mus musculus with 2 samples.

Results

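Progression from G1 into S phase is set by a small group of genes, and 10 of them were examined in P9 mouse testes: the D-type cyclins Ccnd1, Ccnd2 and Ccnd3, the E-type cyclins Ccne1 and Ccne2, the kinases Cdk2, Cdk4 and Cdk6, the kinase inhibitor Cdkn1b and the pocket protein Rb1. They form a list of gene symbols drawn up with earlier results of these data known, and each matched 1 of the 39695 gene entries of the RNA-seq data. The data comprised 1 library from whole testes of control males and 1 from Bcas2F/-;Vasa-Cre males, all 9 days old. Control males were Bcas2F/-. Mice of both genotypes thus had 1 floxed and 1 deleted allele of Bcas2, and the mutants alone carried Vasa-Cre, a transgene whose recombinase acts in germ cells and not in the somatic cells of the testis. The labels give C57BL/6 as the strain, whereas the methods of the study describe a mixed 129/C57BL/6 background. How many mice went into each library is not given in the sources used here.

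D-type cyclins bind CDK4 and CDK6, and E-type cyclins bind CDK2. The active kinases phosphorylate the retinoblastoma protein, which then releases E2F transcription factors and lets S-phase genes be transcribed, Ccne1 and Ccne2 among them. p27, the product of Cdkn1b, binds and restrains cyclin-CDK2 complexes. In the testis these genes act in dividing spermatogonia and in somatic cells: males without cyclin D2 have small testes, loss of p27 enlarges the testis, and CDK2 is needed for meiotic prophase.

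Each level below is an RPKM value, the reads on a gene per kilobase of its length and per 1000000 reads of its library. The difference of a gene is given as the log2 ratio of RPKM + 1 in Bcas2F/-;Vasa-Cre over RPKM + 1 in control testes, so a negative value means a lower level in the mutant library. Neither genotype was sequenced in replicate, so the spread between mice is unknown and differences are given without p-values. Intervals are 95% Clopper-Pearson intervals of the log2 RPKM ratio without the added 1. They cover counting error only, not the spread between mice or libraries. The library totals behind the RPKM scaling, recovered from the values, were 19918750 for the control library and 19331687 for the mutant library. They are lower than the numbers of mapped reads that the study gives for these paired-end libraries, and whether they count reads or read pairs is not given in the sources used here. Bcas2 itself, the targeted gene, was at 39.5 RPKM in control and 25.7 in Bcas2F/-;Vasa-Cre testes, a log2 ratio of -0.60 with an interval from -0.75 to -0.50.

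RefSeq promoter windows on GRCm38.p6 were at hand for Ccnd3, Ccne1, Cdk2, Cdk4, Cdk6 and Cdkn1b. The 250 bases upstream of the start are shown for 2 genes that differed little between the libraries, Cdk4 and Cdk2, and 2 that were lower in the mutant library, Cdk6 and Ccne1. They lie at chr10:127063285-127063534 on the plus strand for Cdk4, chr5:3343643-3343892 on the plus strand for Cdk6, chr10:128705052-128705301 on the minus strand for Cdk2 and chr7:38107491-38107740 on the minus strand for Ccne1, and all read 5′ to 3′ in the direction of the gene. The RefSeq starts used for Cdk6, Ccne1 and Cdk4 lie inside the GENCODE spans of these genes given below. The Cdk6 window lies wholly within its span and the Ccne1 window in part, while the Cdk4 window shares only its last base. Capitals mark E-boxes, the MYC-type motif CACGTG, in Cdk4 and Cdk6. In Cdk2 they mark E2F-type motifs on either strand (the letters TTCCCGC, the letters TTGGCGC, the letters TTCGCGC or the letters TTGCCGC), and in Ccne1 GC boxes (GGGCGG on either strand).
Cdk4: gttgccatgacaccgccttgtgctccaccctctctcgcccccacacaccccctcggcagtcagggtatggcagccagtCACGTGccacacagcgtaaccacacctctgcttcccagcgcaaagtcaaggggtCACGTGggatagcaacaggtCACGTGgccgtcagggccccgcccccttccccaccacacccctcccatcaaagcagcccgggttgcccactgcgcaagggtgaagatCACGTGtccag
Cdk6: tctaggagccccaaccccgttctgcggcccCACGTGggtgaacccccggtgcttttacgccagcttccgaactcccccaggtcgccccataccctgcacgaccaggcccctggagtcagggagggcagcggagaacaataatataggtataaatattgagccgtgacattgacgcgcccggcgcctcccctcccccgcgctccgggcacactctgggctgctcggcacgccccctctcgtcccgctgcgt
Cdk2: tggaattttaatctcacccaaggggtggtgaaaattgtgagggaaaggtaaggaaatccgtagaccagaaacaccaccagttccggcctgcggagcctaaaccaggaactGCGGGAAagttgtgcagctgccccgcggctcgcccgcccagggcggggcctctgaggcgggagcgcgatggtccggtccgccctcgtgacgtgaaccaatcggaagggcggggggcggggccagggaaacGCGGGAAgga
Ccne1: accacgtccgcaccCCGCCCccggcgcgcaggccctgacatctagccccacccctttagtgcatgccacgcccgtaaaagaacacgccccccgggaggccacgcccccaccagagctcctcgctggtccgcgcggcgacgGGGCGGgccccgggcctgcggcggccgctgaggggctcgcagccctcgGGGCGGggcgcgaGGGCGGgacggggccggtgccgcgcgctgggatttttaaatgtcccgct
Cdk4 had 4 E-boxes, a number reached by 7 of 32851 promoter windows of the same length. Cdk6 had 1, and 6.02% of all windows had at least 1. The E2F-type motifs, of which Cdk2 had 2, occurred in 7.89% of all windows and in none of the other 6 member windows. GC boxes numbered 4 in Ccne1 and 0 in Cdk6, and there were 5 in Cdk2 and 1 in Cdk4, which are left in lower case. They occurred in 32.7% of all windows, and 4.09% had at least 4. An E2F-type motif can share bases with a GC box or with another E2F-type motif. These matches describe letters in a window and show no binding.

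All 10 genes were expressed, over a wide range of levels. Per length, Cdk4 was the highest member in both libraries, at 222 RPKM in control and 215 in Bcas2F/-;Vasa-Cre testes. Cdk6 was the lowest, at 5.34 and 3.30 RPKM, so the range of levels was 41.6-fold in the control library and 65.3-fold in the mutant library. In the control library the order below Cdk4 was Ccnd3, Cdk2, Ccnd2, Rb1, Ccnd1, Cdkn1b, Ccne2, Ccne1 and Cdk6. Of these neighbours, Ccnd2 and Rb1, Cdkn1b and Ccne2, and Ccne2 and Ccne1 had overlapping 95% Poisson intervals and were not separated. These intervals cover counting error only, and the order of different genes also depends on the gene lengths used for RPKM. In the mutant library Ccnd2 stood above Cdk2, and Ccnd1 had moved from the sixth to the eighth place, between Ccne2 and Ccne1. There Cdk2 and Rb1, Ccne2 and Ccnd1, and Ccnd1 and Ccne1 were not separated.

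**Figure D1:**
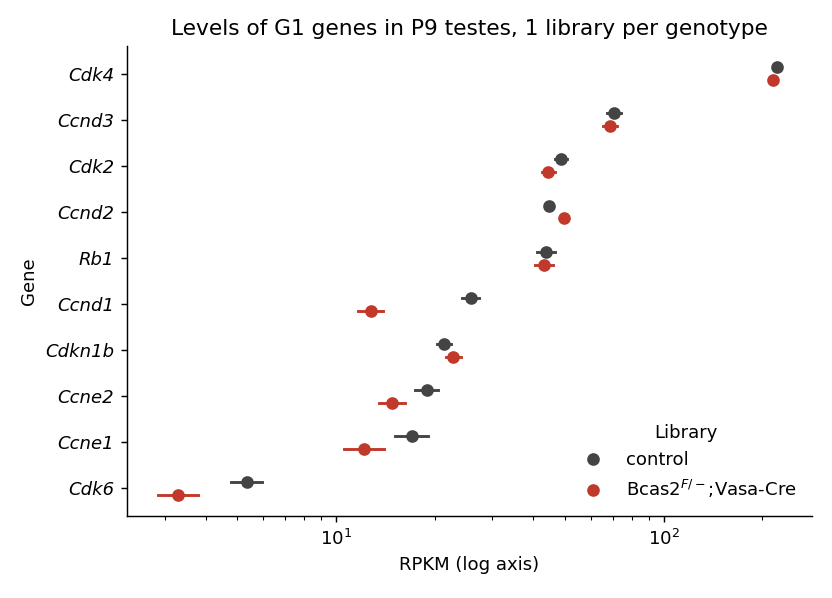
RPKM (log axis) of the 10 genes in the control library (dark) and the Bcas2F/-;Vasa-Cre library (red), ordered by control level. Points are the values of 1 library each and bars are 95% Poisson intervals, which cover counting error only. Ccnd1 went from 25.8 to 12.8 RPKM, the widest gap of the 10, and Cdk6, Ccne1 and Ccne2 also lay lower in the mutant library, whereas the points of Cdk4, Ccnd3 and Rb1 lay close together.

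Of the 10 genes, 1 (Ccnd1) was more than 1.5-fold lower in Bcas2F/-;Vasa-Cre testes and 0 were more than 1.5-fold higher. The background was 1.69% of 14831 genes lower and 1.57% higher, counting genes whose RPKM averaged 1 or more. At 1.2-fold, 4 genes were lower (Ccnd1, Cdk6, Ccne1 and Ccne2) and 0 were higher, against 9.37% and 8.91% of all genes tested. Among the 13004 protein-coding genes tested, the shares past 1.5-fold were 1.23% on the lower and 0.392% on the higher side, and those past 1.2-fold were 8.61% and 5.88%. The median log2 ratio of the members was -0.08, beside 0.02 for all genes tested, whose SD was 0.26. Counting intervals lay below 0 for Ccnd1, Cdk6, Ccne1, Ccne2 and Cdk2, above 0 for Ccnd2, and across 0 for Ccnd3, Cdk4, Cdkn1b and Rb1. Over all genes tested, 17.5% had an interval below 0 and 19.8% above 0, and genes with many reads, such as Cdk2, leave 0 outside their interval at small ratios. All 10 passed the minimum of 1 RPKM, Cdk6 as the weakest with a mean of 4.32.

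**Figure D2:**
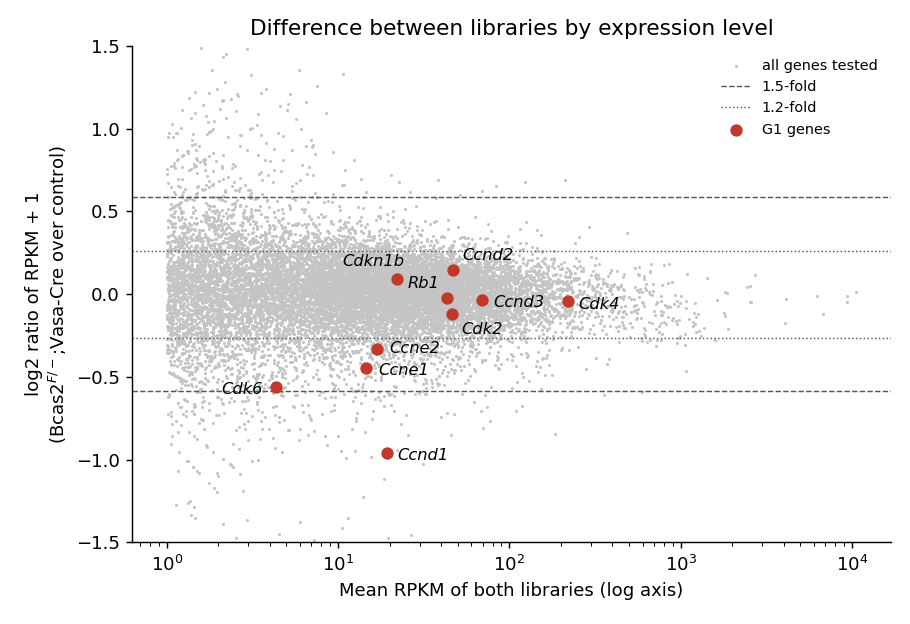
Log2 ratio of RPKM + 1 (Bcas2F/-;Vasa-Cre over control) against the mean RPKM of both libraries (log axis) for 14831 genes (grey) and the 10 G1 genes (red). Dashed and dotted lines mark 1.5-fold and 1.2-fold, and 37 grey genes lie beyond the vertical axis. Ccnd1 lies below the lower dashed line at -0.96, Cdk6 just above it at -0.56, Ccne1 and Ccne2 lie between the lower dashed and dotted lines at -0.45 and -0.33, and the other 6 genes lie between the dotted lines.

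Among the D-type cyclins, which link growth signals to the cell cycle, Ccnd1 stood apart from Ccnd2 and Ccnd3. Ccnd1, on chromosome 7 from 144929931 to 144939925 (minus strand), was at 25.8 RPKM in control and 12.8 in mutant testes, from 1081 and 520 reads. Its level in the mutant library was 2.02-fold lower, with a log2 ratio of -0.96 and an interval from -1.17 to -0.86. Only 60 of the 14831 genes tested (0.405%) had a log2 ratio as low or lower. Of the 4652 genes whose mean lay between 5 and 20 RPKM (SD of 0.25), 17 were as low or lower.

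The 3′ part of Ccnd1 overlaps LTO1 on the opposite strand, over 23.4% of the annotated exon bases of Ccnd1. LTO1 was at 28.5 RPKM in control and 30.8 in mutant testes and did not share the lower level. The strand setting of the counting is not given in the sources used here, and reads in the overlap cannot be assigned between the genes without it.

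Ccnd2, on chromosome 6 from 127125162 to 127152193 (minus strand), was the member with the highest ratio. Its level was 44.7 RPKM in control and 49.5 in Bcas2F/-;Vasa-Cre testes, a log2 ratio of 0.14 with an interval from 0.09 to 0.20. This is above counting error but within the SD of 0.17 among the 3350 genes from 20 to 50 RPKM. Ccnd3, on chromosome 17 from 47505051 to 47599691 (plus strand), had the highest RPKM of the D-type cyclins, 70.4 in control and 68.7 in mutant testes. Its log2 ratio of -0.04 had an interval from -0.14 to 0.06. That rank is per length. Ccnd2 had more recovered reads in control, 5078 against 1656 for Ccnd3, over a longer recovered length, 5701 against 1181 bases. Recovered reads and lengths of both genes may be wrong by a whole factor. A processed pseudogene, Ccnd3-ps, is 96.3% identical to Ccnd3 over 881 bases and was listed at 0 in both libraries.

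The make-up of the D-type cyclins differed between the libraries. Ccnd1 made up 18.3% of their summed RPKM in control and 9.76% in mutant testes. The share of Ccnd2 was 31.7% in control and 37.8% in mutant testes, and that of Ccnd3 was 49.96% and 52.5%. Such shares within a library do not depend on how the libraries were scaled, but they depend on the gene lengths used for RPKM. The summed RPKM of the 3 genes was 140.9 and 130.9, a log2 ratio of -0.11.

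**Figure D3:**
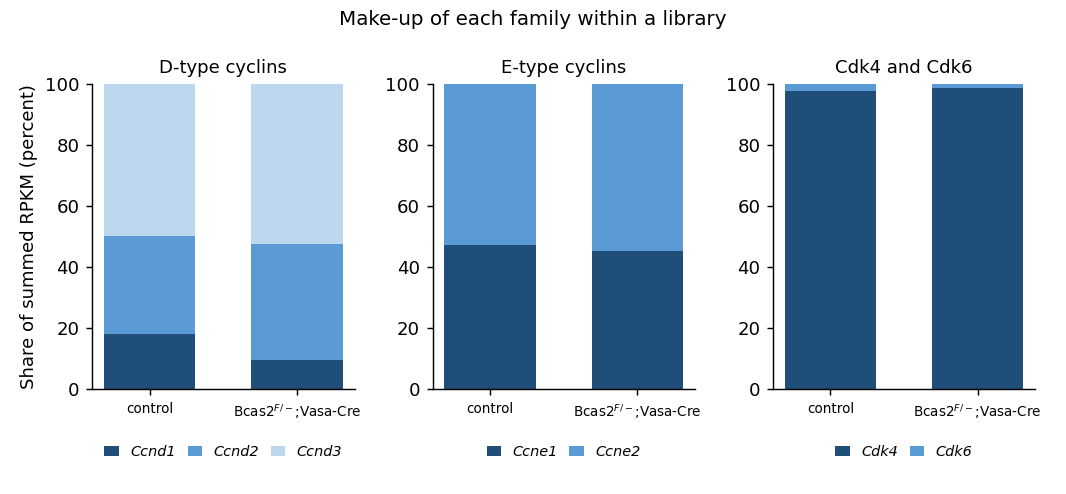
Share of each gene in the summed RPKM of its family (percent), per library, for the D-type cyclins, the E-type cyclins and the pair Cdk4 and Cdk6. The Ccnd1 part of the D-type cyclins is 18.3% in control and 9.76% in Bcas2F/-;Vasa-Cre testes, whereas the E-type cyclins keep close to an even split and Cdk4 makes up over 97% in both libraries.

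Both E-type cyclins, the partners of CDK2 at the entry into S phase, were lower in Bcas2F/-;Vasa-Cre testes. Ccne1, on chromosome 7 from 38097984 to 38107534 (minus strand), was at 17.0 RPKM in control and 12.2 in mutant testes, from 293 and 204 reads. Its log2 ratio was -0.45, with an interval from -0.74 to -0.22, and 129 of the 4652 genes from 5 to 20 RPKM were as low or lower. Ccne2, on chromosome 4 from 11191351 to 11204779 (plus strand), was at 18.9 and 14.8 RPKM, a log2 ratio of -0.33 with an interval from -0.53 to -0.17. In the same class 260 genes were as low or lower.

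The intervals of Ccne1 and Ccne2 overlap widely, and their shares of the summed E-type RPKM were alike in both libraries, 47.3% in control and 45.1% in mutant testes for Ccne1. Together they summed to 35.9 RPKM in control and 27.0 in mutant testes, a log2 ratio of -0.40. Ccne2 shares 17.4% of its exon bases with Ints8 on the opposite strand, a subunit gene of the Integrator complex that was at 39.8 and 35.3 RPKM.

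Of the kinases, Cdk6 was the one more than 1.2-fold lower. Cdk6, on chromosome 5 from 3341485 to 3531008 (plus strand), was at 5.34 RPKM in control and 3.30 in Bcas2F/-;Vasa-Cre testes, from 330 and 198 reads. The level was 1.62-fold lower as a plain RPKM ratio, and the log2 ratio of RPKM + 1 was -0.56, just inside the 1.5-fold line. Its interval ran from -0.96 to -0.44 and rests on recovered reads that may be wrong by a whole factor. With an added 0.1 in place of 1 the log2 ratio was -0.68, past 1.5-fold. Among the 4168 genes from 1 to 5 RPKM, in which the SD was 0.36, 166 were as low or lower.

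Cdk4, which pairs with the same D-type cyclins, differed little. On chromosome 10 from 127063534 to 127067920 (plus strand), it was at 222 and 215 RPKM, a log2 ratio of -0.04 with an interval from -0.10 to 0.02. The ratio of Cdk4 to Cdk6 was 41.6 in control and 65.3 in mutant testes, and Cdk4 made up 97.7% and 98.5% of the RPKM of the pair. Tspan31 overlaps 19.7% of the exon bases of Cdk4 on the opposite strand, and its 34.3 and 32.8 RPKM differed as little.

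Cdk2, the partner of the E-type cyclins, lies on chromosome 10 from 128697939 to 128705031 (minus strand). It was at 48.5 RPKM in control and 44.5 in mutant testes, a log2 ratio of -0.12 with an interval from -0.21 to -0.04. Although the interval lay below 0, 696 of the 3350 genes of its class were as low or lower, so the difference is of a size common among all genes.

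The inhibitor and the pocket protein downstream of these kinases showed no difference beyond counting error. Cdkn1b, on chromosome 6 from 134920401 to 134925513 (plus strand), was at 21.4 RPKM in control and 22.8 in mutant testes, a log2 ratio of 0.09 with an interval from -0.01 to 0.20. Rb1, on chromosome 14 from 73183673 to 73325822 (minus strand), was at 43.8 and 43.2 RPKM, a log2 ratio of -0.02 with an interval from -0.15 to 0.11, and rescaling RPKM to the same sum in both libraries moved it to 0.01. Differences within these bounds could not be detected at this depth. The RPKM of Cdkn1b relative to Cdk2 was 0.44 in control and 0.51 in mutant testes.

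The testis mixes germ cells and several kinds of somatic cells, so marker genes were examined beside the G1 genes. All 10 germ cell markers were lower in Bcas2F/-;Vasa-Cre testes, 8 of them by more than 1.2-fold, with a median log2 ratio of -0.37 and a summed RPKM of 753 in control and 579 in mutant testes. They ran from -0.71 for Sall4, a transcription factor of spermatogonia, to -0.19 for Gfra1, a growth factor receptor subunit of undifferentiated spermatogonia. Uchl1, the most abundant, was at 279 and 224 RPKM. The log2 ratios of Ccne1, Ccne2 and Cdk6 lay inside this range, that of Ccnd1 lay below all 10, and those of Cdkn1b, Rb1, Ccnd2, Ccnd3, Cdk4 and Cdk2 lay above all 10. These marker values come from 1 library per genotype. By real-time RT-PCR of P9 testes, the study found Ddx4, Kit, Dazl and Stra8 similar in both genotypes, and Dmc1 and Sycp3 significantly lower in the mutant. At P9, histology in the study did not separate the genotypes. At slightly later ages it counted no significant difference in cells with the spermatogonial protein PLZF. The same held for cells with the germ cell protein MVH at the basement membrane. MVH-positive cells in the tubule centre were apparently lost at such an age. In the whole-testis libraries themselves, fewer cells of a type and less RNA per cell cannot be told apart. The part of the germ cell markers' difference in the lower cyclin and Cdk6 levels was not tested.

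Sertoli cell markers pointed the other way. Of 7, 6 were tested, 4 had counting intervals above 0, and 2 were more than 1.2-fold higher, with a median of 0.19 and a summed RPKM of 630 and 704. Amh, the anti-Müllerian hormone, had the highest log2 ratio at 0.36. Fshr, the receptor of follicle-stimulating hormone, had the lowest at 0.00, and Cldn11, a tight junction protein, was the most abundant at 232 and 234 RPKM. Rhox5 was listed at 0 in both libraries.

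Leydig cell markers were mixed. Their median was 0.36, their summed RPKM was 381 and 425, and they ranged from -0.17 for Hsd3b1, a steroid dehydrogenase and the most abundant at 189 and 168 RPKM, to 0.68 for the steroid hydroxylase Cyp17a1. The 4 peritubular myoid markers had a median of -0.01 and a summed RPKM of 501 and 469, from -0.13 for the smooth muscle actin Acta2, the most abundant at 344 and 314 RPKM, to 0.09 for Cnn1. The 4 endothelial markers had a median of -0.10 and a summed RPKM of 36.8 and 34.8, from -0.22 for Tek to 0.08 for Kdr, with Cdh5 the most abundant at 18.7 and 17.9 RPKM.

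The 4 macrophage markers had a median of -0.16 and a summed RPKM of 29.6 and 28.2, from -0.23 for Csf1r to 0.10 for Mrc1, the most abundant at 12.3 and 13.2 RPKM. The 6 blood cell markers were spread most widely, with 4 of them more than 1.5-fold lower and a median of -1.83. The red cell anion exchanger Slc4a1 was the lowest, at 15.7 RPKM in control and 0.607 in mutant testes, whereas the β-globin Hbb-bs was the highest ratio and the most abundant, at 551 and 596 RPKM. Their summed RPKM was 826 and 783. The part of these markers' differences in the Ccnd1 level was not tested.

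**Figure D4:**
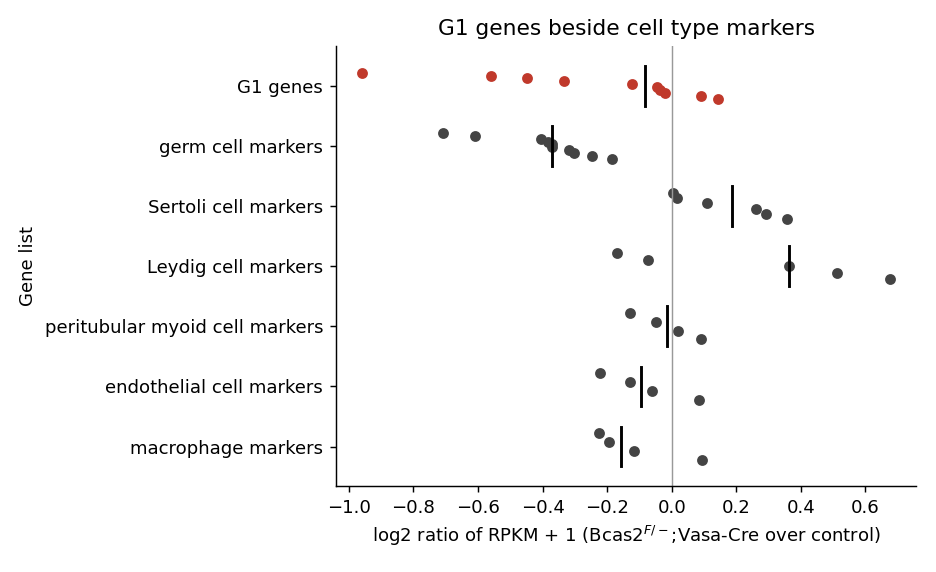
Log2 ratio of RPKM + 1 (Bcas2F/-;Vasa-Cre over control) of the 10 G1 genes (red) and of markers of 6 cell types (dark), with 1 point per gene and black lines at list medians. The germ cell markers all lie below 0, with a median of -0.37, and the Sertoli cell markers at or above it, with a median of 0.19. The blood cell markers reach -3.38 and are left out of the plot.

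Beyond these 10 genes, 38 further genes of the G1 pathway were examined. Of these, 37 passed the minimum level, 2 were more than 1.5-fold lower, 5 were more than 1.2-fold lower, 1 was more than 1.2-fold higher, and the median log2 ratio was -0.02. Over all genes tested, the shares were 1.69% for the first count, 9.37% for the second and 8.91% for the third, and 5 and 1 of 37 are near or under those at 1.2-fold. Counting intervals lay below 0 for 10 and above 0 for 1 of the 37, beside 17.5% and 19.8% of all genes. The 2 genes past 1.5-fold were E2f2 and Cdkn2a. E2f2, an activating E2F factor, was at 4.43 RPKM in control and 2.52 in mutant testes, a log2 ratio of -0.62. Its interval ran from -1.14 to -0.49, and 127 of the 4168 genes from 1 to 5 RPKM were as low or lower. Cdkn2a, which encodes a CDK4/6 inhibitor and a p53 regulator, was at 34.2 and 22.2 RPKM. Its log2 ratio of -0.60 was just past the 1.5-fold line, with an interval from -0.81 to -0.43. Of the 3350 genes from 20 to 50 RPKM, 17 were as low or lower.

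The other 3 genes past 1.2-fold on the lower side were Ccna2, Cdkn1a and Tfdp1. Ccna2, the cyclin A that takes over CDK2 in S phase, was at 73.4 and 57.0 RPKM, a log2 ratio of -0.36. Tfdp1, the dimer partner of E2F factors, was at 82.2 and 67.0 RPKM, a log2 ratio of -0.29. Cdkn1a, which encodes the p53-responsive inhibitor p21, was at 5.78 and 4.55 RPKM with the same rounded log2 ratio, and its interval from -0.73 to 0.03 included 0. The log2 ratios of E2f2, Cdkn2a, Ccna2, Tfdp1 and Cdkn1a lay within the range of the germ cell markers. Any gene chosen as more than 1.2-fold lower falls in that range unless its log2 ratio is below -0.71. The part of the germ cell markers' difference in the levels of these genes was not tested.

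The highest log2 ratios were those of Lin52, Cdk7 and Cdkn2b. Lin52, a subunit of the MuvB core that joins pocket proteins to E2F-regulated genes, was at 5.48 and 6.78 RPKM, a log2 ratio of 0.26 with an interval from 0.05 to 0.56. Cdk7, the CDK-activating kinase, had a log2 ratio of 0.17, and the inhibitor Cdkn2b one of 0.16 from 60 and 68 reads. The intervals of Cdk7 and Cdkn2b included 0. For Cdk7 the reads could not be recovered from the ratio and were estimated from the annotated mean transcript length.

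Taken by role, 0 of 2 other pocket proteins, 0 of 6 ubiquitin ligase genes and 0 of 3 genes of the CDK-activating kinase were past 1.2-fold. Of the upstream MYC factors 0 of 2 were past it in either direction, and of Cdc25a and Wee1, which act on CDK2, 0 of 2. The interval of Cdc25a, from -0.28 to -0.07, lay below 0. Skp1a, the adaptor of SCF ubiquitin ligases, was the most abundant gene of the list, at 566 and 530 RPKM. The genes that were lower were spread over 3 roles, with 2 of the 6 other CDK inhibitors, 2 of the 10 E2F and DP factors, and Ccna2. Ccna2 was the tested A-type cyclin. Over all genes tested 9.37% were more than 1.2-fold lower, and the Cdkn1a interval included 0. Ccna1, the cyclin A of meiotic germ cells, had 7 reads in control and 15 in mutant testes and did not pass the minimum level.

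**Figure D5:**
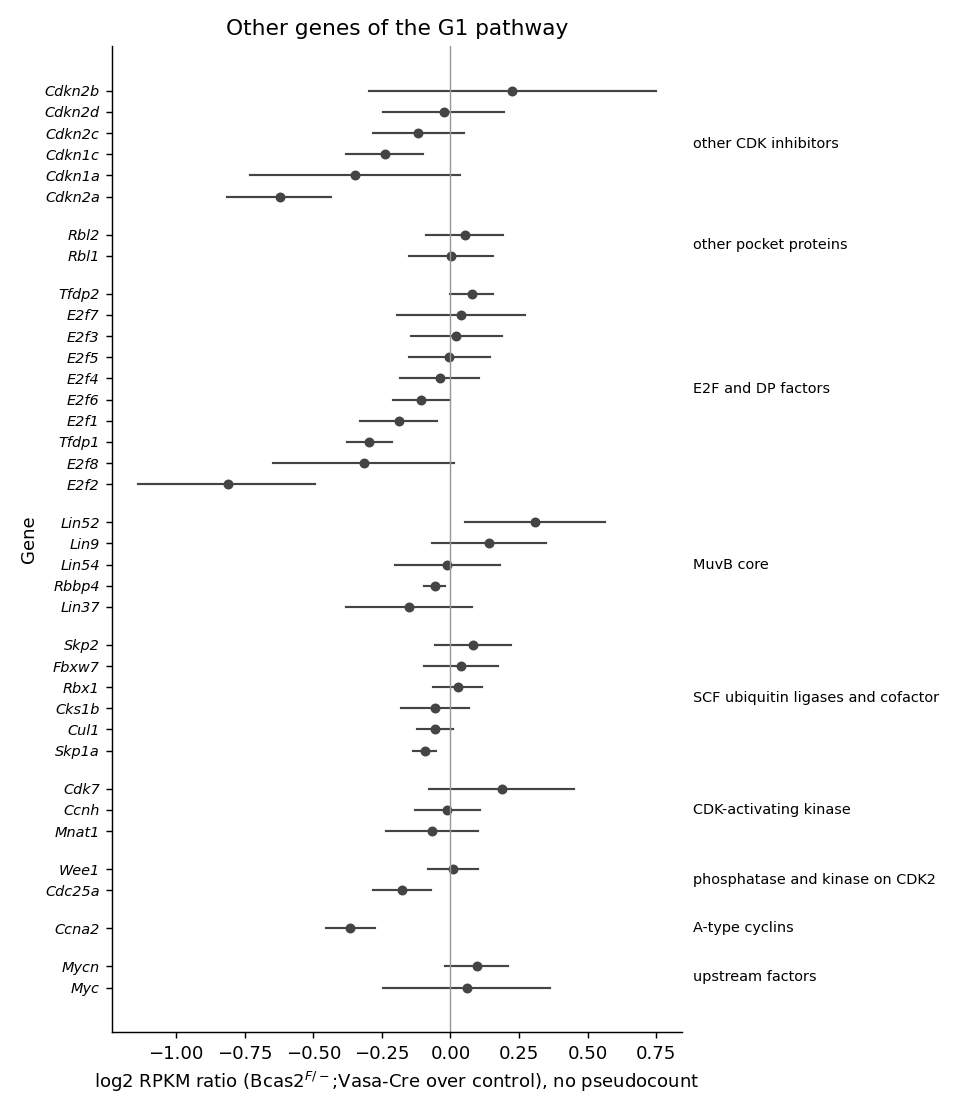
Log2 RPKM ratio without an added 1 (Bcas2F/-;Vasa-Cre over control) of the 37 tested genes of the G1 pathway list, grouped by role. Points are the ratios of the 2 libraries and bars are 95% Clopper-Pearson intervals, which cover counting error only. The whole bars of 10 genes, among them E2f2, Cdkn2a, Ccna2 and Tfdp1, lie to the left of 0. The bar of Lin52 lies to the right of 0, and the other bars reach across 0.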

How the data were processed

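RNA-seq libraries of whole P9 testes were analysed, 1 from control and 1 from Bcas2F/-;Vasa-Cre males. The authors aligned paired-end clean reads to mm10 with TopHat2 2.0.9, took gene counts with HTSeq and deposited RPKM for 39695 gene entries. The annotation release and gene lengths are not given in the sources used here. GENCODE M21 on GRCm38, the same build, gave symbols and positions for 37606 entries (94.7%).

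Log2 ratios of RPKM + 1 were taken over the 14831 genes whose RPKM averaged 1 or more. The added 1 understates differences of weakly expressed genes. RPKM does not correct for RNA composition. The reads behind a value were recovered from the RPKM ratio of the libraries, a ratio of whole reads, with the multiple that gave a whole gene length nearest to the mean transcript length. Of the entries above 0 in both libraries, 89.2% were solved in this way. Reads of the others were estimated from the annotated mean transcript length where there was one. All these reads added up to 100.4% and 100.2% of the library sizes. Because the reads scale with the recovered sizes, these percentages do not check the sizes. Reads of single genes may be wrong by a whole factor, most for Cdk6, Ccnd2 and Ccnd3. Such an error would widen or narrow an interval and change shares of reads. The procedures were tested on simulated data with gene lengths set to the annotated means. That test cannot show how well reads are recovered where real lengths differ. BLAST+ 2.17.0 found gene copies, and Python 3.11.15 with scipy 1.17.1 was used.

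The genes and lists were chosen with earlier results of these data known. All 10 genes are named, and of the other lists the genes past 1.2-fold, the 3 highest and lowest, or the highest, lowest and most abundant marker. Genes singled out by role were chosen after their values were seen, as was the promoter subset. Alternatives changed the pseudocount, scaling, filter or gene set.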

Additional observations from a re-analysis of the deposited data

How the results depend on the processing

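No paired analysis was possible because each genotype had 1 library, and no library could be left out. Of the 10 members, 9 kept the sign of their log2 ratio under each pseudocount, scaling and filter that gave a value. The exception was Rb1, at 0.01 with RPKM rescaled. Cdk6 gave no value with a minimum mean of 5 RPKM. The scalings moved the median of all genes tested from 0.02 to 0.00 and 0.04. With pseudocounts of 0.1 and 0.01, 2 members were more than 1.5-fold lower, Cdk6 being the second, while the background was 3.08% and 3.27% lower and 3.06% and 3.31% higher. With that minimum, the background was 0.975% lower and 0.431% higher at 1.5-fold and 5.14% higher at 1.2-fold, and 1 gene of the G1 pathway list was more than 1.5-fold lower. With protein-coding genes only, 0.392% were more than 1.5-fold and 5.88% more than 1.2-fold higher. With RPKM rescaled to 1000000 per library, 2.69% were more than 1.5-fold higher, and 1 gene of the pathway list was more than 1.5-fold lower. With the median set to 0, 0 genes of that list were more than 1.2-fold higher. Without a filter, 2 of them were, the share of all genes lower by over 1.2-fold was 5.97%, and the Sertoli cell median was 0.11.

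Shares of reads are not per length and differ by construction. They rest on recovered reads, so a whole-factor error for Ccnd2, Ccnd3 or Cdk6 would change the shares in its family. Of the D-type cyclin reads, Ccnd1 took 13.8% in control and 6.90% in mutant testes, Ccnd2 65.0% and 72.3%, and Ccnd3 21.2% and 20.8%. Of the E-type cyclin reads, Ccne1 took 33.6% and 31.6%, and Ccne2 66.4% and 68.4%. Cdk4 took 93.5% and 95.8% of the reads of its pair, and Cdk6 6.50% and 4.24%. Ccne1 and Cdk6 had the fewest reads of the 10 members, which limits the precision of their ratios.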
